A study of Mus musculus with 6 samples.

Results

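UTX occupancy was examined at the gene of the glucocorticoid receptor, Nr3c1, and at 6 genes widely used as readouts of its activity: Fkbp5, Tsc22d3, Per1, Sgk1, Txnip and Klf9. The members were taken as every row of the authors' deposited table whose gene symbol was one of these 7. This gave 11 of 6739 sites, all of them higher in WT, as were 6718 of the 6739. The 6718 are 81.0% of the 8293 tests behind the deposited FDR values. That number of tests is not given by the authors' table and was inferred from its p-values and FDR values. Fkbp5, Nr3c1, Per1 and Sgk1 had 2 sites each and Tsc22d3 had 3, while no row was assigned to Txnip or Klf9. The table lists only sites that differed between the genotypes at an FDR (adjusted p-value) under 0.05, so the sites were selected on their measured genotype difference, which is given here as a description. Among the sites higher in WT, the one with the largest FDR was assigned to Entpd5, with an FDR of 0.04998 in the authors' deposited table, and of the 11 sites the one nearest to that limit was at Fkbp5, with an FDR of 0.0376.

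The libraries came from CUT&Tag, in which an antibody guides a DNA-cutting transposase to a chromatin protein, here with an antibody against UTX. The cells were progenitor CD8+ T cells (Ly108+CXCR6-) sorted from pancreatic lymph nodes. One group was NOD.NY8.3 mice, labelled WT, with a transgenic T cell receptor directed at an islet antigen, and the other was UTXTCD.NY8.3 mice, which have the same receptor and lack UTX in T cells only, with 3 samples each. The labels used here give no Cre driver, age or pooling of animals, and nothing says that replicates came from separate mice, so the deposited p-values measure the spread between these samples, which may be technical.

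UTX, encoded by Kdm6a, removes methyl groups from lysine 27 of histone H3 and works within the MLL3/4 enhancer complexes. The glucocorticoid receptor is a nuclear receptor held in the cytoplasm by the HSP90 chaperone machine until cortisol or corticosterone binds, after which it enters the nucleus and binds palindromic DNA elements. In lymphocytes glucocorticoids restrain activation, raise IL-7 receptor expression and, at high levels, kill thymocytes. FKBP51, the product of Fkbp5, lowers the hormone affinity of the receptor and so closes a negative feedback loop, and Tsc22d3 encodes GILZ, a mediator of anti-inflammatory actions. The period protein of Per1 belongs to the circadian clock, SGK1 is a kinase of ion transport and T cell differentiation, TXNIP is an arrestin-fold inhibitor of thioredoxin and glucose uptake, and KLF9 is a zinc finger repressor.

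Depth was recovered per library from the group values, because a group mean adds up whole reads, scaled library by library. Libraries are ranked by depth, since nothing in the table ties them to replicates. With the average library set to 1, the WT libraries had depths of 1.28, 0.916 and 0.792, and the UTX-deficient libraries 1.93, 1.07 and 0.00577. The last library was near-empty: it held 0 reads at all 11 sites. It also held 0 reads over all sites higher in WT whose reads could be recovered, so its depth rests on the remaining sites. At the mean WT level it would have held between 0.0898 and 1.59 reads per site, and 4.39 over the 11 sites together. Its zeros at single sites show little. Reads, levels and residual signal of UTX-deficient cells are therefore given for the 2 deep libraries, and the near-empty one is left out of their means. Over the recovered sites higher in WT, the deepest of the 2 held 15506 reads and the other 26900, so their levels differ across the table. The deposited concentrations, folds and FDR values cover all 6 libraries, the near-empty one included. These sites report UTX occupancy, not expression. Among marker genes, 4 of 5 CD8 T cell and all 5 progenitor markers had a listed site. So did 3 of 4 effector markers, against 0 of 4 B cell and 0 of 4 myeloid markers. Cd4, the marker of the other T cell lineage, also had 1. Of all protein-coding genes 22.1% had a site higher in WT, so 0 of 4 says little. Within 1 kb of a gene end, 3 CD8 T cell, 1 progenitor and 2 effector markers had a site.

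Promoter windows show where the listed sites fall at these genes. RefSeq windows on GRCm38.p6, the assembly of mm10, run from 250 bases before to 50 after each start. Of 14 such windows for 6 of the 7 genes, 3 overlapped a listed site (Fkbp5 with 283 of its 300 bases, Per1 and Sgk1 with all 300), and across 32851 windows 12.8% overlapped one. The first 3 windows below are those inside a site, the next holds the palindromic element of the receptor closest to an Sgk1 site, then comes the Tsc22d3 window nearest a site, and last the Txnip window, which has a site next to it. Each is written 5′ to 3′ along its gene. Capitals mark matches on either strand to 7 short motifs: the glucocorticoid response element (arms GNACA and TGTNC with 3 bases between them), a single full arm (TGTTCT), the CREB element (TGACGTCA), the E-box (CACGTG), the CAAT box (CCAAT), the GC box (GGGCGG) and the TATA box (TATAAA). Matches can overlap, as the single arm does within the response element.
Fkbp5 start, chr17:28486100-28486399, minus strand: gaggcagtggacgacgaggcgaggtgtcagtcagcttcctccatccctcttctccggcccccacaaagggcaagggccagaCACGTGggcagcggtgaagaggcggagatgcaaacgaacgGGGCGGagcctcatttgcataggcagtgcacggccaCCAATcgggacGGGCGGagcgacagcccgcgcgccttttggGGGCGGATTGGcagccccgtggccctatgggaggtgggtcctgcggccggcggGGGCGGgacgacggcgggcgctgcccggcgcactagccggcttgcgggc
Per1 start inside its site, chr11:69098699-69098998, plus strand: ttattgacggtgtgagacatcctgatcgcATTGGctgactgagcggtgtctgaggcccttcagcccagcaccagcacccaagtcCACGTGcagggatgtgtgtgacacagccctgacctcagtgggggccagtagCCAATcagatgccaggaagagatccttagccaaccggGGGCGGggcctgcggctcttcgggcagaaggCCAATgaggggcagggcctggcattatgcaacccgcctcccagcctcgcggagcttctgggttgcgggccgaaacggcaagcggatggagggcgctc
Sgk1 start inside its site, chr10:21994416-21994715, plus strand: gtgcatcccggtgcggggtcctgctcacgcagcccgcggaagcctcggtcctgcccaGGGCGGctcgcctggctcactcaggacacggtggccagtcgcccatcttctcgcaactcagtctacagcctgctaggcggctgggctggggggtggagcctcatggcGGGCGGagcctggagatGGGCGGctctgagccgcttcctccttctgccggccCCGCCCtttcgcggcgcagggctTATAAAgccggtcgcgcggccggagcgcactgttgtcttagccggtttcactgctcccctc
Sgk1 start upstream of the site, chr10:21993640-21993939, plus strand: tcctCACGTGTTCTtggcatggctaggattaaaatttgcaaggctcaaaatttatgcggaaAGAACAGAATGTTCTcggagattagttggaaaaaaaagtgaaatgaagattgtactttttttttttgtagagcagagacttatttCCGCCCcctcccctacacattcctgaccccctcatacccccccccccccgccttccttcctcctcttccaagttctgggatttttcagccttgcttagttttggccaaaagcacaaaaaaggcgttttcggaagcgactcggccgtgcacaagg
Tsc22d3 start nearest its site, chrX:140542619-140542918, minus strand: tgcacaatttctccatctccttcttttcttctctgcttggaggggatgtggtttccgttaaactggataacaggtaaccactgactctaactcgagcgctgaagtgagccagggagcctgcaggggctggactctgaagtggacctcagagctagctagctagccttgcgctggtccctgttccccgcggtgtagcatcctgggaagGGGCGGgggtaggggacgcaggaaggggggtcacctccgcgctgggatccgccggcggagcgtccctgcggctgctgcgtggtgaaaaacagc
Txnip start, chr3:96557707-96558006, plus strand: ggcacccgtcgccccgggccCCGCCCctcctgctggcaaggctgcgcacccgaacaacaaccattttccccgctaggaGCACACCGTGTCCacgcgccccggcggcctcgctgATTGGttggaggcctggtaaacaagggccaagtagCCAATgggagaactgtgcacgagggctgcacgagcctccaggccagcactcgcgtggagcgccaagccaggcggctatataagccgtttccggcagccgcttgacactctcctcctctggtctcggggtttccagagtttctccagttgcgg

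None of the 3 windows inside a site held the response element or its single arm. Both are uncommon in windows overlapping a site, at 0.19% and 10.3%, so their lack in 3 windows says little. GC boxes were found 4 times in the Fkbp5 window, 4 times in the Sgk1 window and 1 time in the Per1 window, and a GC box was present in 35.7% of all windows and in 78.2% of those overlapping a site. Fkbp5 and Per1 each carried 1 E-box, at -169 and -166 from the start, a motif in 7.15% of all windows and 11.5% of those overlapping a site. These windows were rich in CpG, with 32 at Fkbp5, 28 at Sgk1 and 16 at Per1, beside a median of 7 over all windows and 25 over those overlapping a site. The Txnip and Klf9 windows, with 24 and 28 CpG, lay in the same range although no site was assigned to either gene.

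The response element was present in 2 of the 14 windows, against 0.475% of all windows, and the single arm in 4 of the 14, against 19.0%. The other motifs searched were in 1.79% (CREB element), 37.4% (CAAT box) and 13.6% (TATA box) of all windows. At Sgk1 the match GAACAGAATGTTC lay on chr10:21993702-21993714, with single-arm matches at -189 and -180 from that start overlapping its arms. That match was 669 bases before the Sgk1 site and 964 bases before the start that the site covers. At Txnip the match GCACACCGTGTCC lay on chr3:96557785-96557797, 404 bases after the end of the nearest listed site. Both are matches of letters and show no binding of the receptor.

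**Figure D1:**
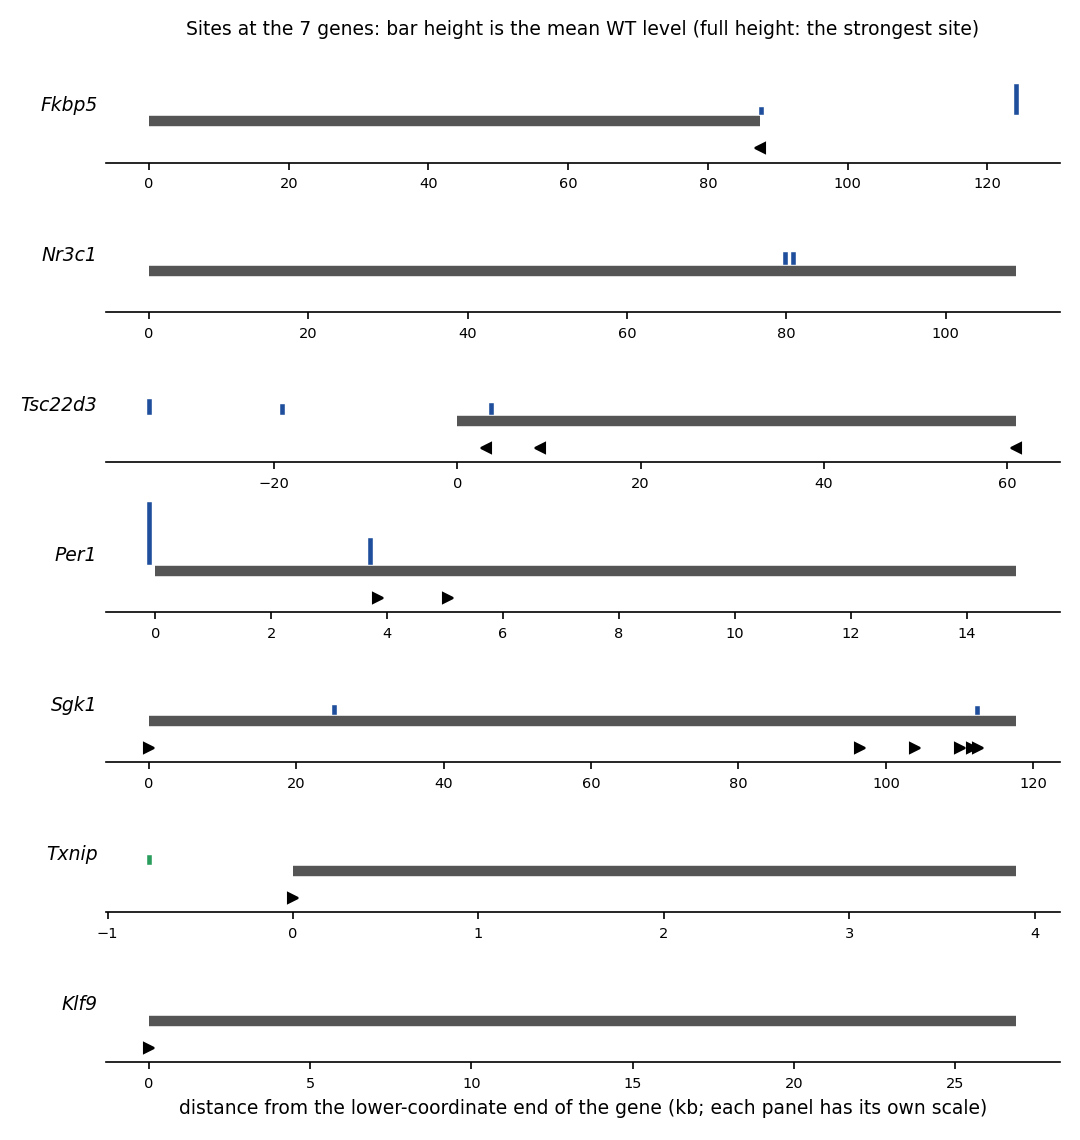
Position of the listed sites along the 7 genes, in kb from the lower-coordinate end of each gene, each panel with its own scale. The grey bar is the gene, arrowheads are RefSeq start sites pointing in the direction of transcription (none was used for Nr3c1), blue bars are sites assigned to the gene and the green bar at Txnip is a site assigned to Gm15441; bar height is proportional to the mean WT level, which was highest at the Per1 5′ end (276 normalized reads).

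At the receptor gene itself, a pair of sites stood close together inside Nr3c1, on chr18:39490225-39490625 and chr18:39491221-39491621, with 595 bases between them. Both lay inside the gene (chr18:39410545-39519421), 28996 and 28000 bp from its upper end. The WT libraries held 49, 46 and 28 reads at the lower site, against 8 and 4 in the deep UTX-deficient libraries. At the upper site they held 40, 49 and 25, against 1 and 2. Every WT library was above every UTX-deficient library at both sites. That holds at 99.8% of the sites whose reads could be recovered, so it sets apart none of the sites described here or below. The normalized WT levels overlapped, at 41.3 ± 7.87 and 38.8 ± 12.7 reads (SD, n = 3), and their per-library ratio was 1.09 ± 0.145 (SD, n = 3). What remained in UTX-deficient cells differed more, with 9.52% of the WT mean at the lower site and 3.07% at the upper. These rest on 12 and 3 reads, and the upper value was 1.33% and 4.81% in the deep libraries taken alone. In the authors' deposited table the log2 folds were -3.16 (FDR 6.24e-10) and -4.33 (FDR 8.83e-09). No listed site of another gene lay within 100 kb of Nr3c1, the nearest being at Arhgap26, 417322 bp away.

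Fkbp5 combined one of the steepest losses in the whole table with one of its weakest sites. The strong site, chr17:28522693-28523093, lay 36744 bp upstream of the Fkbp5 start, inside the lncRNA gene E230001N04Rik, whose end was nearer to it than that of Fkbp5. WT libraries held 142, 131 and 90 reads there, against 2 and 2 in the deep UTX-deficient libraries. All 3 WT libraries, at 111, 143 and 114 normalized reads, stood far above the UTX-deficient ones at 1.03 and 1.86. The residual signal was 1.18% of the WT mean, resting on 4 reads, and in the authors' deposited table its log2 fold, -5.84 (FDR 3.35e-20), ranked number 4 in size among 6718 sites higher in WT. On recovered reads, with the near-empty library left out, limma gave a log2 difference of -5.67 with an SE of 0.574.

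The other Fkbp5 site, chr17:28486117-28486517, covered the promoter, its middle 168 bp upstream of the start. Reads numbered 14, 20 and 11 in WT against 0 and 1 without UTX, which is few. The groups did not overlap, as at 99.8% of the recovered sites. Its WT level, 15.6 ± 5.63 normalized reads (SD, n = 3), fell in the lowest 3.71% of sites, and the log2 fold was -2.69 (FDR 0.0376) in the authors' deposited table. Within the same WT libraries the upstream site held 10.1, 6.55 and 8.18 times the level of the promoter site, the widest spread between sites of any of the 5 genes. Srpk1, at -4.21 on the log2 scale in the authors' deposited table, was the only other gene with a listed site within 100 kb of either site, 89582 bp from the upstream one, and a Fance site lay 85127 bp from the other end of the gene.

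Tsc22d3 had the site that retained most signal, and it was the one next to a start. That site, chrX:140543053-140543453, lies inside the gene with its middle at -585 bp from the start at 140542668, while another start lies at the far end of the gene, at 140600522. The reads were 48, 31 and 30 in WT against 11 and 7 in the deep UTX-deficient libraries. Although the WT libraries (33.8 to 37.9 normalized reads) remained clear of the UTX-deficient ones (5.69 and 6.53), 16.8% of the WT mean was left (15.6% and 17.9% in the deep libraries taken alone, the highest of the 11 sites in each), beside a median of 5.75% over all sites higher in WT. Its log2 fold in the authors' deposited table, -2.47 (FDR 6.16e-08), was smaller than that of most sites, at the 9.18th percentile of size. The limma value without the near-empty library was -2.40 on the log2 scale, with an SE of 0.523.

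The other sites assigned to Tsc22d3 lay beyond its 3′ end. The nearer, chrX:140520237-140520637, was 19091 bp from the gene and held 36, 27 and 22 WT reads against 6 and 1 without UTX. Farther out, chrX:140505713-140506113 was 33615 bp from the gene and held 84, 36 and 43 WT reads against 7 and 5. Neither showed overlap between the groups, and the WT libraries spread more widely at the farther site (39.3 to 65.7 normalized reads) than at the nearer (27.8 to 29.5). The log2 folds in the authors' deposited table were -3.19 and -3.51, and the residual signal was 7.08% and 7.80%, the first averaging 10.9% and 3.27%. An end of the lncRNA gene Gm39538 was closer to both than an end of Tsc22d3, and no listed site of any other gene lay within 100 kb of Tsc22d3.

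Per1 carried the strongest of the 11 sites. It spans the 5′ end of the gene, on chr11:69094801-69095201, and held 342, 280 and 201 WT reads against 16 and 38 in the deep UTX-deficient libraries. Its WT level of 276 ± 26.9 normalized reads (SD, n = 3) was at the 99.8th percentile of sites higher in WT. The UTX-deficient libraries were both far lower but unlike each other, at 8.27 and 35.4 normalized reads, and the log2 fold was -3.46 (FDR 5.32e-06) in the authors' deposited table. A lower level in the deepest UTX-deficient library was also found over all sites higher in WT together. The second Per1 site, chr11:69098611-69099011, covers the start whose window is printed above, 3409 bases farther along. With 126, 112 and 75 reads in WT against 8 and 10, its WT libraries again lay above the UTX-deficient ones, and its log2 fold was -3.95 (FDR 8.25e-21) in the authors' deposited table. In each WT library the 5′ end site held 2.5 to 2.71 times the level of the second, a ratio that varied little (2.63 ± 0.115, SD, n = 3). The residual signal was 7.93% of the WT mean at the 5′ end and 6.40% at the second site. The first averages unlike libraries, 3.00% and 12.9% taken alone, and the second 3.93% and 8.87%, so their order is not resolved. Other listed sites within 100 kb were assigned to Borcs6, 35011 bp from the first Per1 site, and Ctc1, 78542 bp from it.

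Sgk1 had a pair of weak sites at opposite parts of a long gene, 86897 bases apart. The promoter site, chr10:21994384-21994784, had its middle 82 bp upstream of the last of 6 RefSeq starts, and held 24, 19 and 15 WT reads against 1 and 0 in the deep UTX-deficient libraries. The internal site, chr10:21907086-21907486, was 25102 bp into the gene from its first start and held 24, 23 and 21 WT reads against 4 and 0. WT libraries were above UTX-deficient libraries at both, yet the WT levels, 19.5 ± 1.09 and 23.5 ± 4.12 normalized reads (SD, n = 3), overlapped each other. Both were below the median of the table, at the 16.7th and 30.3rd percentiles. For them the log2 folds were -3.69 (FDR 0.000492) and -3.19 (FDR 0.0012) in the authors' deposited table. The residual signal was 1.33% and 4.41% of the WT mean, resting on 1 and 4 reads. The other 5 Sgk1 windows did not overlap a listed site.

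No site was assigned to Txnip, but a listed site stood beside it. The site chr3:96556980-96557380 was assigned to Gm15441, a lncRNA gene whose span (chr3:96555768-96566801) contains the whole of Txnip, and 576 bases separated it from the Txnip gene. Its middle was at -777 bp from the Txnip start. Reads numbered 36, 19 and 22 in WT against 0 and 3 in the deep UTX-deficient libraries, without overlap between the groups. Its log2 fold was -3.23 (FDR 0.00117) in the authors' deposited table, with a WT level of 25.6 ± 4.17 normalized reads (SD, n = 3). This site was singled out after its values had been seen. Klf9 had no listed site within 100 kb, and 155043 bases separated the gene from the nearest, assigned to Smc5. Since 1554 of the 8293 tests inferred behind the deposited FDR values are outside the table, the lack of a row does not show that UTX was absent at these genes.

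**Figure D2:**
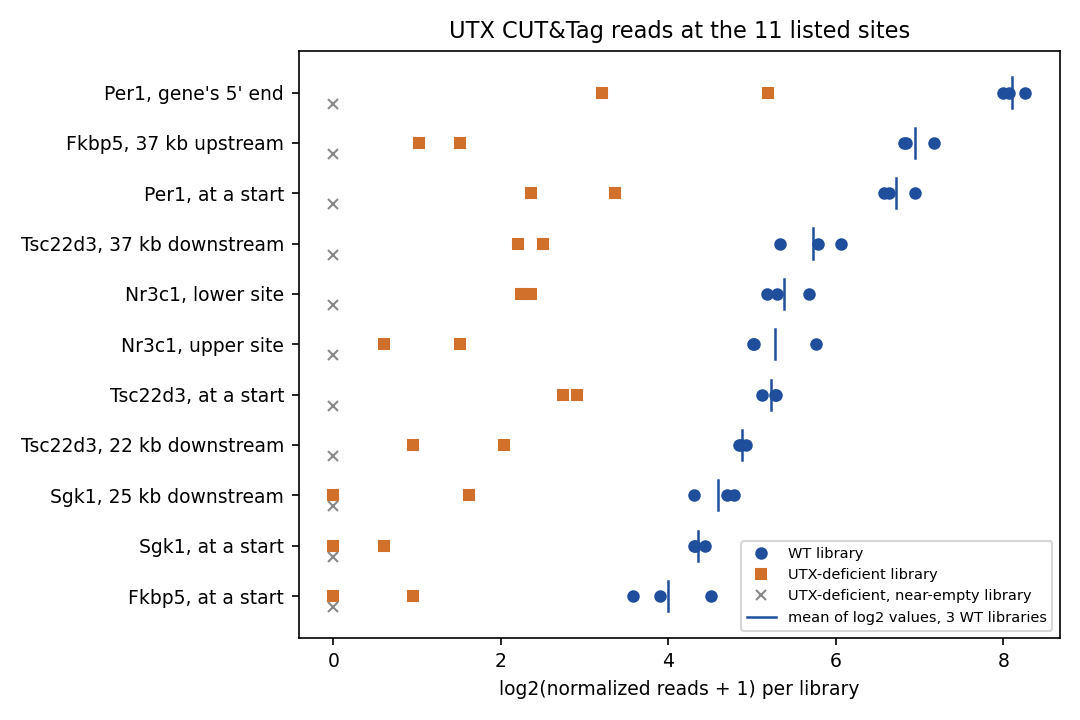
Normalized reads per library at the 11 listed sites, on the horizontal axis as log2(normalized reads + 1); blue circles are the 3 WT libraries, orange squares the 2 deep UTX-deficient libraries, grey crosses the near-empty UTX-deficient library, and blue lines the mean of the WT log2 values. At every site the WT circles lie to the right of the orange squares, and the near-empty library is at 0 throughout.

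Set beside the whole table, the 11 sites were ordinary in direction. At a stricter FDR of 0.01, 10 of the 11 were left, beside 5836 of the 6718 sites higher in WT. The 5836 are 70.4% of all tests behind the deposited FDR values, which include tests outside the table. WT and UTX-deficient libraries did not overlap at any of the 11, which was also true of 99.8% of the sites in the table that could be solved, so the direction and the separation are those of the table as a whole. By limma without the near-empty library, all 11 had an adjusted p under 0.05, against 99.8% of the sites tested. The median log2 fold was -3.46 for the 11 sites and -3.51 for all sites higher in WT in the authors' deposited table. The median WT concentration (log2 of mean normalized reads) was 5.28 for the 11 sites against 4.94. In total, 7 of the 11 were above the median WT concentration and 4 had a larger fold than the median site. The median residual signal was 6.40% against 5.75%.

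The 11 WT levels, all measured in the same 3 libraries, fell into steps. The Per1 5′ end stood alone at the top, with its lowest library (254 normalized reads) above the highest of the next site. Fkbp5 upstream and the Per1 start site came next at 123 ± 17.7 and 105 ± 14.9 (SD, n = 3), and their ranges overlapped, although Fkbp5 was the higher within each library (111 against 98.5, 143 against 122 and 114 against 94.7). The farther Tsc22d3 site, the Nr3c1 pair and the Tsc22d3 start site followed between 53.1 and 36.4, each overlapping its neighbour in the order. The nearer Tsc22d3 site, at 28.5 ± 0.892, did not overlap the site above it or the one below it. Both Sgk1 sites and the Fkbp5 promoter formed the lowest group, between 23.5 and 15.6, with overlapping ranges. No test was run between sites, so these steps are a description of ranges.

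**Figure D3:**
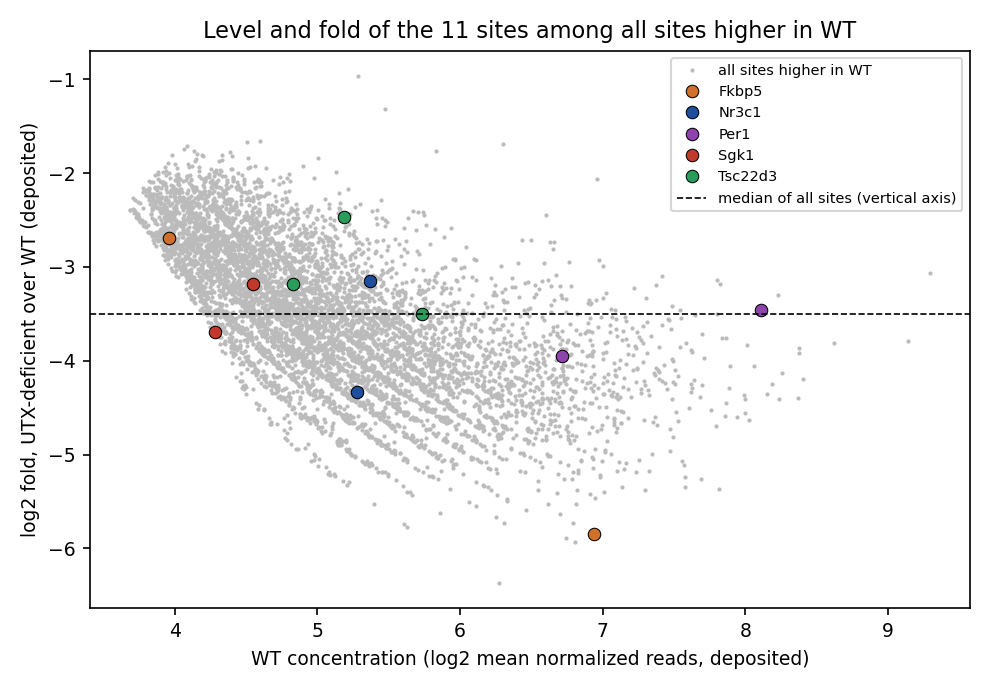
Deposited log2 fold (vertical axis, negative where WT is higher) against the deposited WT concentration (horizontal axis, log2 mean normalized reads) for all sites higher in WT in grey and the 11 sites in colour by gene; the dashed line is the median fold of -3.51. One Fkbp5 site has the largest fold of the 11 at -5.84 and the other lies at -2.69, while Tsc22d3 has the smallest at -2.47.

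Position relative to starts varied among the genes. Of the 11 sites, 8 overlapped the gene they were assigned to, and across all sites higher in WT the share was 75.6%. A RefSeq start was at hand for 9 of the 11, and 4 of these lay within 1 kb of one (at Fkbp5, Per1, Sgk1 and Tsc22d3), against 61.0% of 5382 sites. The site at the Per1 5′ end is not among the 4. Its middle was 107 bp from that end of the gene, but no start used here lay there. For Nr3c1 no start was used. The set of starts is therefore incomplete for these genes, and the shares do not show whether the 11 sites lie away from starts. By distance to either end of the assigned gene, 5 of the 11 were within 10 kb and 2 within 1 kb. Each of the 5 genes with a site had at least 2, whereas 18.4% of the 4837 protein-coding genes with a site higher in WT had 2 or more. The genes were proposed with these rows in view, so no weight is given to that count.

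Sites of other genes with almost the same pair of group values were found for each gene's strongest site, by distance in the plane of WT and UTX-deficient concentrations, over the 2 groups. Fkbp5 upstream was nearest to Skil and Zfp36l1, at distances of 0.129 and 0.197. The lower Nr3c1 site was nearest to Tnfaip3 (0.0262) and Josd2 (0.038), and the farther Tsc22d3 site to Scml4 (0.0193) and Chaserr (0.0293). For the internal Sgk1 site the nearest were Fasl (0.000157) and Mtarc2 (0.000315). At the Per1 5′ end, where few sites are as strong, Tnfrsf14 and Add3 were nearest at 0.281 and 0.282. Fkbp5, Sgk1 and their like sites all sit at the floor of 0 in UTX-deficient concentration, so those distances reflect WT alone. That concentration is a mean that includes the near-empty library.

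The machinery around the receptor was described with lists that had been written with earlier results of these data known. Of 21887 protein-coding genes, 22.1% had a site higher in WT, as did 49 of 83 genes over the 4 lists of chaperones, coregulators, hormone handling and other induced genes (59.0%), with a median log2 fold of -3.68 over 79 sites in the authors' deposited table and 0 sites higher in UTX-deficient cells. The background includes genes silent in T cells, so the part of gene activity in these shares was not tested. For a gene of these and the later lists with more than 1 site, the fold given is that of its site with the smallest FDR. Other sites had a smaller fold at some genes (Ep300, -2.17 against -4.98) and a larger one at others (Rara, -4.65 against -4.21).

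Chaperones and cochaperones that fold the receptor for hormone binding had a site at 11 of 17 genes (64.7%; 22.1% of all protein-coding genes). The median log2 fold of their 12 sites was -4.40. For all 11 the distance from a site to a gene end was under 1 kb, beside 15.3% of all protein-coding genes with such a site. Hspa8, the constitutive HSC70 chaperone, was at -4.54, Dnaja1, an HSP40 cochaperone, at -4.77, Hsp90ab1, the constitutive HSP90, at -4.86, and Stub1, a ubiquitin ligase acting on HSP90 clients, at -4.42 in the authors' deposited table. Fkbp4, whose product FKBP52 competes with FKBP51 for the receptor complex, held 26, 16 and 16 WT reads against 1 and 0 at a site 70 bp downstream of its start, at -3.66 on the log2 scale in the authors' deposited table. That WT signal was weak, like that of the Fkbp5 promoter, and again the groups did not overlap. Ppid, Ppp5c and Cdc37, other partners of HSP90, had no listed site.

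Coregulators had a site at 15 of 19 genes (78.9%; 22.1% of all protein-coding genes), with a median log2 fold of -3.40 over 22 sites. Ep300, a histone acetyltransferase, was at -4.98, Carm1, an arginine methyltransferase coactivator, at -4.68, Ncoa2, the p160 coactivator also called GRIP1 or TIF2, at -3.80, and Smarca4, the BRG1 remodelling ATPase, at -3.52 in the authors' deposited table. Ncoa1, another p160 coactivator gene, had no listed site. Hormone handling showed a site at 4 of 12 genes (33.3%; median log2 fold -3.36). Hsd11b1, which regenerates active hormone, and H6pd, which supplies its cofactor, were at -3.94 and -4.51, Abcb1a, a steroid exporter, at -3.36, and Cyp11a1, the side-chain cleavage enzyme of steroid synthesis, at -3.51 in the authors' deposited table, with its site 25791 bp from the gene. The mineralocorticoid receptor gene Nr3c2 had no listed site.

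Other genes that glucocorticoids induce in many cell types had a site at 19 of 35 (54.3%; 22.1% of all protein-coding genes). Their median log2 fold was -3.78 over 38 sites, and 12 of them had 2 or more. Dusp1, a MAP kinase phosphatase, was at -4.38, Zfp36l2, an mRNA decay factor, at -3.67, Cxcr4, a chemokine receptor, at -3.53, and Pik3ip1, an inhibitor of PI3 kinase, at -4.02 in the authors' deposited table. Counting only sites within 1 kb of a gene end, 10 of the 35 had one, beside 15.3% of all protein-coding genes. Of 10 glucocorticoid targets of the liver, such as Tat and Pck1, 0 had a listed site. Inflammatory genes that glucocorticoids repress had a site at 4 of 14 (28.6%; median log2 fold -3.45), namely Ifng (-4.38), Tnf (-5.23), Ccl5 (-3.45) and Cxcl10 (-2.21) in the authors' deposited table, a share close to the 22.1% of all genes, and 0 of the 14 had one within 1 kb of a gene end.

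**Figure D4:**
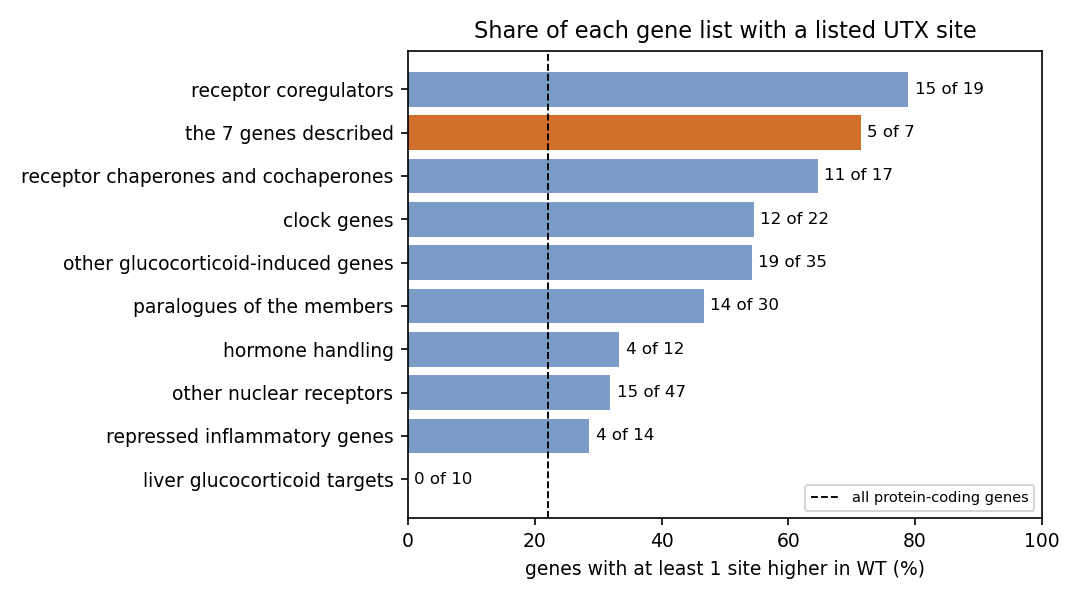
Percent of the protein-coding genes of each list with at least 1 site higher in WT (horizontal axis), with the number of genes beside each bar; the orange bar is the 7 genes described and the dashed line is all protein-coding genes at 22.1%. Receptor coregulators reach 15 of 19, and liver glucocorticoid targets 0 of 10.

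Relatives of the members with a site numbered 14 of 30 (46.7%; 22.1% of all protein-coding genes), with a median log2 fold of -3.75 over 21 sites. Among arrestin-domain genes, the family of Txnip, a site was assigned to Arrdc1 (-3.69), Arrdc2 (-4.20), Arrdc3 (-3.57) and Arrdc4 (-2.94), each within 1 kb of a RefSeq start, by the log2 folds in the authors' deposited table. The FK506-binding family added Fkbp3 (-3.08), Fkbp8 (-4.27) and Fkbp4, and the TSC22 family Tsc22d4 (-4.62), in the authors' deposited table. Krüppel-like relatives of Klf9 with a site were Klf13 with 7 (best FDR at a log2 fold of -3.83), Klf10 (-4.91), Klf11 (-5.38) and Klf16 (-4.31) in the authors' deposited table, so that Klf9 was without a listed site in a family where others had one. Both other period genes had 1 site each, Per2 at -3.68 and Per3 at -3.15 in the authors' deposited table, and neither Sgk2 nor Sgk3 had one.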

How the data were processed

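UTX CUT&Tag from 3 WT and 3 UTX-deficient samples was read from the authors' deposited table alone; the submitters' processing notes name DiffBind, MACS2, Picard, SAMtools, Bowtie2, cutadapt, FastQC and build mm10, without versions or roles. No source used here says whether peaks were called per sample or pooled. The file headers name concentrations, fold, p-value and FDR without scale or direction. The deposited concentrations were taken as log2 mean normalized reads, floored at 0, and the fold as a log2 value (UTX-deficient over WT). The p-value and FDR are the authors' own. The number of tests behind them was inferred from FDR, p-value and rank, taking the FDR as a Benjamini-Hochberg adjustment. Groups follow the genotype labels.

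Whole reads per library were solved from the deposited log2 group values at 6732 of 6739 sites, all 11 members included. Recovered relative depths summed to 6. The recovery was tested on a simulated table built from the recovered levels and depths. Its near-empty library was given no reads at sites higher in WT, so the test does not check that library there. Reads give counting error only, without molecular identifiers. limma 3.58.1 in R 4.3.3 was fitted to log2(normalized reads + 1) of all solved sites, without the near-empty library unless stated, because its zeros pull the group mean down by construction. Its adjusted p is by Benjamini-Hochberg and repeats the contrast that chose the sites.

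Genes and starts came from RefSeq on GRCm38.p6; 6673 site symbols matched. Distances from a site to a start or end of its gene run from the middle of the site. Those between sites, and from a gene to a site of another gene, run from edge to edge. The members, lists and rule for named genes (members with every site, up to 4 genes a list by FDR, relatives with a site, like sites and neighbours within 100 kb) were chosen with earlier results of these data known. The Fkbp4 reads and genes named for having no site were added after their values were seen. Grip1, which shares only an alias with the coactivator Ncoa2, had been listed by error and was removed after the counts were seen; it had no site. Alternatives were the FDR threshold, distance, source of fold, pseudocount and left-out libraries.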

Additional observations from a re-analysis of the deposited data

How the results depend on the processing

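The 10 alternatives per site gave 110 values, from -6.94 to -2.40 on the log2 scale, and no site changed direction. None could, because every WT library was above every UTX-deficient library at the 11 sites, which were selected on this contrast. The largest adjusted p among the limma alternatives was 0.0276, and the difference of deposited concentrations has no test. The median log2 fold of the 11 sites, -3.46 as deposited, was -4.28 as the difference of deposited concentrations, -4.15 by limma on all 6 libraries, -4.78 with a pseudocount of 0.5 and -3.38 with one of 2, and ranged from -4.48 to -3.79 when each library was left out in turn, the last without the near-empty library. The 11 sites became 7 when the nearest gene end had to be that of the assigned gene. Within 10 kb of a gene end 5 sites at 4 of the 7 genes were left (19.3% of protein-coding genes) and within 1 kb 2 sites at 2 genes (15.3%). Counted by position within 1 kb of the gene, an alternative added after seeing the data, 6 genes had 9 sites, Txnip among them, against 25.0% of protein-coding genes. The 49 list genes, beside 22.1% of all, were 46 at FDR 0.01 (19.5%), 46 within 10 kb (19.3%) and 35 within 1 kb (15.3%). No paired analysis was possible because the deposited columns are group values without replicate numbers. Few reads limit the residual values, which rest on 1 to 54 reads a site.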

Other observations

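Other nuclear receptor genes had a site at 15 of 47 (31.9%; 22.1% of all protein-coding genes), with a median log2 fold of -4.03 over 25 sites. Those with the smallest FDR were the orphan receptors Nr4a1 with 5 sites and Nr4a3 with 4, at log2 folds of -4.63 and -4.70, and the retinoic acid receptors Rarg and Rara at -3.98 and -4.21 in the authors' deposited table. The Rara site of smallest FDR held 233, 225 and 135 WT reads against 12 and 15 in the deep UTX-deficient libraries.

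Clock genes, among which Per1 belongs, had a site at 12 of 22 (54.5%; 22.1% of all protein-coding genes), with a median log2 fold of -3.97 over 14 sites. Within 1 kb of a gene end 8 of the 22 had one, beside 15.3% of all protein-coding genes. This list too was written with earlier results of these data known. Tef and Dbp, related transcription factors of clock output, were at -5.24 and -4.33, and Nr1d2, a repressor of the clock loop, was at -5.43 in the authors' deposited table. The Tef site held 166, 115 and 98 WT reads against 3 and 5 without UTX, its middle at -141 bp from a RefSeq start.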
